A study of Mus musculus with 24 samples.

Results

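The 33 genes described here belong to the integrated stress response, the unfolded protein response of the endoplasmic reticulum (ER), and the synthesis of serine, asparagine, proline and one-carbon units. They were chosen by gene symbol, and 33 of 33 were found among the 56748 genes of the count table. Of these, 9 are transcription factors, 7 are stress sensors or regulators, 4 act in ER folding and degradation, 6 make serine, asparagine or proline, and 5 are folate enzymes. The other 2 are Stc2 and Vldlr. The study measured poly(A) RNA of wild-type mouse T cells polarised in culture as regulatory T cells (Treg), activated CD8 T cells, Th17 cells or Th1 cells. Each cell type received 1 of 5 perhydroquinoxaline-derived agonists of the kappa opioid receptor, known by the code names WMS-83, WMS-76, WMS-75, WMS-64 and WMS-200, or the vehicle DMSO. The compounds were given at 0.1 µM for at most 5 days, alike for all cell types. There were 24 libraries, 1 for each combination of cell type and treatment, so a cell type has 6 libraries and an agonist or DMSO has 4. The libraries of a cell type are not said to come from separate animals, and p-values therefore measure the spread between these libraries, which may be partly technical. Column names of the table also carry a WT number of unstated meaning. It is 3 for the WMS-200 and DMSO libraries of Treg and 2 for the other 4 Treg libraries, 2 for all 6 CD8 libraries and 4 for all 6 Th1 libraries. In Th17 it is 3 for WMS-83, 2 for DMSO and 1 for the other 4. Number 2 is thus shared by Treg, CD8 and Th17, and number 3 by Treg and Th17. Number 4 occurs in Th1 alone, where it cannot be told apart from the cell type.

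In the integrated stress response, kinases such as PERK phosphorylate the initiation factor eIF2, which lowers translation in general and favours that of the mRNA for ATF4. ATF4 pairs with C/EBP proteins at C/EBP-ATF response elements (CARE) and activates genes for amino acid transport, serine and asparagine synthesis and mitochondrial folate enzymes. In the unfolded protein response, PERK acts beside IRE1, which splices the Xbp1 mRNA, and ATF6, and these induce chaperones and degradation factors. Activated T cells take up and make serine and run the folate cycle to supply nucleotides as they divide.

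RefSeq promoter windows of GRCm38.p6, from 250 bases before the start to 50 after it, were at hand for 32 of the 33 genes. The CARE core TGATGNAA was present on either strand in the windows of 8 of the 32, which is 25%, against 4.51% of the 27025 genes of the promoter table. Its form TGATGCAA, which is contained in the core, was present in 6 of the 32 (18.8%), against 1.03% of all genes. Genes of the ATF4 pathway were chosen into the set, so these shares describe the choice and test nothing. The ER stress elements ERSE, ERSE-II and UPRE, the last as TGACGTGG, were searched on both strands too. They were found in Creld2 for ERSE (0.137% of all genes), in Herpud1 for ERSE-II (0.0444%) and in 0 of 32 for UPRE (0.714%). A match is a run of letters in a window and does not show that a factor binds there. The upstream matches are printed with up to 20 bases on each side to show the letters around the motifs in the genes that have one. Each runs 5′ to 3′ on the gene's strand, with the motif in capitals. A core on the opposite strand appears as its reverse complement.
Atf3, chr1:191183416-191183463, minus strand: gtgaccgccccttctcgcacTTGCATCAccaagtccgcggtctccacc
Nupr1, chr7:126625553-126625600, minus strand: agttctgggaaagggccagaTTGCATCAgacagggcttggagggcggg
Chac1, chr2:119351029-119351076, plus strand: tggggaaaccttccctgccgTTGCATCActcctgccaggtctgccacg
Asns, chr6:7693210-7693252, minus strand: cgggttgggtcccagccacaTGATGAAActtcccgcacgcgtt
Pycr1, chr11:120643824-120643871, minus strand: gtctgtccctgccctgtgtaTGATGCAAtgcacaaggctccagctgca
Vldlr, chr19:27216800-27216847, plus strand: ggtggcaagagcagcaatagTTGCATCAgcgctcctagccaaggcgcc
Herpud1 with the CARE core and ERSE-II, chr8:94386297-94386407, plus strand: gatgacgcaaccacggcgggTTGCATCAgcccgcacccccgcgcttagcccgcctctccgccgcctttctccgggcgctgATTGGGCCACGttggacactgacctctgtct
Creld2 with ERSE on the opposite strand, chr15:88819500-88819558, plus strand: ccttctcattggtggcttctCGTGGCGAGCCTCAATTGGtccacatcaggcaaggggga
In Atf3 and in Nupr1 the core starts 110 bases before the start site, in Pycr1 103 and in Herpud1 112. The 8th match, in Trib3, lies after the start site and is not printed. Atf4, Ddit3, Xbp1, Phgdh, Psat1 and the folate enzymes have no CARE core in these windows.

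Library totals were 15188284 to 21946887 counts. Foxp3, the factor that defines Treg, had 162 to 357 CPM (counts per gene scaled to a common library size) in Treg libraries, against 1.59 to 5.32 in CD8, 27.8 to 38.0 in Th17 and 5.83 to 10.8 in Th1. Ikzf2, Lrrc32 and Ctla4 also had their highest means in Treg, but Il2ra, the fifth gene of the Treg list, had its lowest mean there, with 1069.9 CPM in Treg, 1894 in CD8, 1616 in Th17 and 1269 in Th1. Of the Th17 list, Il17a and Il17f had their highest means in Th17, while Ccr6 had 57.1 CPM in Treg and 31.6 in Th17, and Il23r had 5.14 in CD8, 2.56 in Th17 and 5.79 in Th1. Cd8a had 389 CPM in CD8, 84.1 in Th17 and 13.9 in Th1, and Cd4 had 181 in CD8, 458 in Th17 and 754 in Th1. The 5 B cell markers summed to at most 11.8 CPM in any library, the 7 myeloid and dendritic markers to at most 5.21, the 3 NK markers to at most 3.39 and the 5 erythroid markers to at most 0.574, with Hba-a1, Hba-a2 and Hbb-bt at 0 in all Treg libraries. The 5 stromal and epithelial markers summed to 47.3 to 60.5 CPM in Treg and to 14.7 to 22.6 in the other cell types, and most of this was Pecam1, while Col3a1 had 3 counts over all Treg libraries. Treg libraries stood apart in composition. Ribosomal protein genes took 2.25% ± 0.391 of counts in Treg, 10.1% ± 0.338 in CD8, 10.9% ± 1.1 in Th17 and 11.3% ± 0.463 in Th1 (SD, n = 6 each). The log2 fold change of Treg over CD8 had a rank correlation of 0.317 with gene length over 11483 genes, given as a description since these share libraries. The part of composition and length in the results was not tested.

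Most of the 33 genes had their lowest level in Treg. The mean CPM was lowest in Treg for 28 genes, in Th1 for 4 and in Th17 for 1, and it was highest in CD8 for 15, in Th1 for 9, in Th17 for 8 and in Treg for 1, Eif2ak3. In Treg over CD8, 29 genes were lower and 2 higher at an adjusted p under 0.05 in edgeR's quasi-likelihood test, with a median log2 fold change of −1.36. Over all 15885 genes tested, 78% were called, 37.8% lower and 40.2% higher, with a median of 0.080. In Treg over Th17, 28 of the 33 were lower and 2 higher, with a median of −0.96, against 74.9% called, 36.5% lower and 38.3% higher, and a median of 0.090 over all genes. In Treg over Th1, 29 were lower and 3 higher, with a median of −1.18, against 77.5% called, 37.3% lower and 40.1% higher, and a median of 0.090. Every Treg library lay below every CD8 library for 26 genes (30.7% of all genes tested), below every Th17 library for 26 (28.9%) and below every Th1 library for 27 (30%). In bulk RNA, fewer cells with a transcript and less of it per cell cannot be told apart. Scaled to total counts alone, the median of all genes moves up by over 0.1, to 0.42 in Treg over CD8, and the members split into 25 lower and 4 higher, beside 4542 lower and 8216 higher of all genes (6001 and 6385 with TMM). The same scaling gives 26 members lower and 2 higher in Treg over Th17, beside 4175 and 8280 of all genes (5799 and 6091 with TMM). In Treg over Th1 it gives 26 lower and 5 higher, beside 4387 and 8400 (5933 and 6375 with TMM). With length offsets the members split into 26 lower and 4 higher in Treg over CD8, beside 5541 lower and 7037 higher of all genes.

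**Figure D1:**
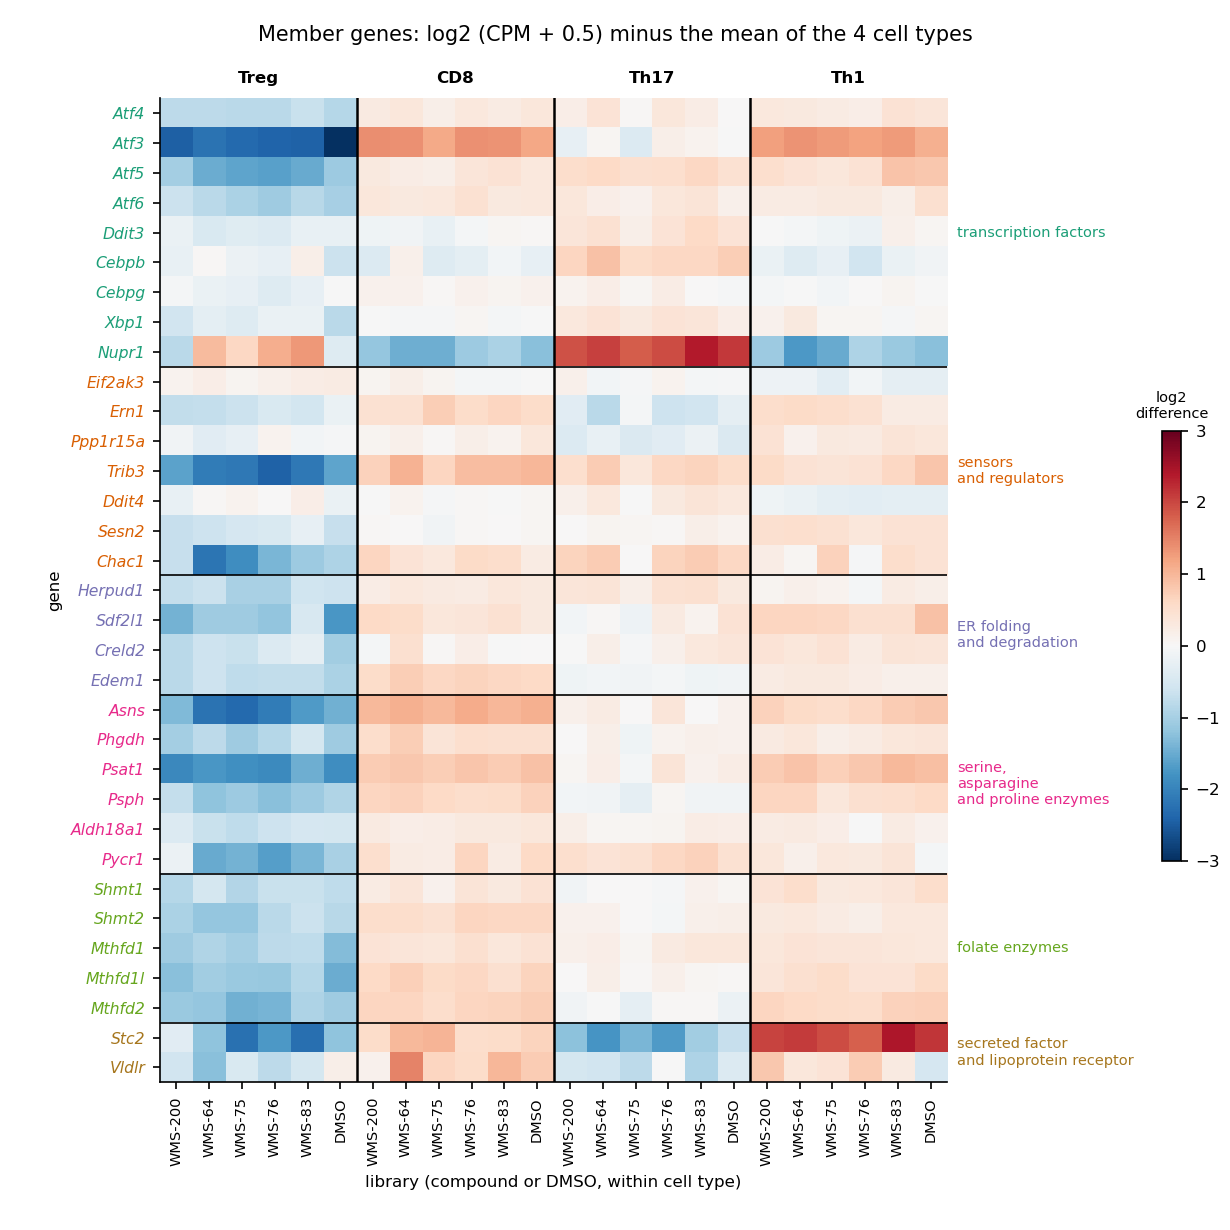
Heat map of the 33 genes (rows, grouped by role) in the 24 libraries (columns, 6 per cell type, the 5 agonists followed by DMSO). Colour is log2 (CPM + 0.5) minus the mean of the 4 cell types for that gene, red for higher and blue for lower. The 6 Treg columns are blue for most genes, Nupr1 is red in Th17, and Stc2 is red in Th1.

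**Figure D2:**
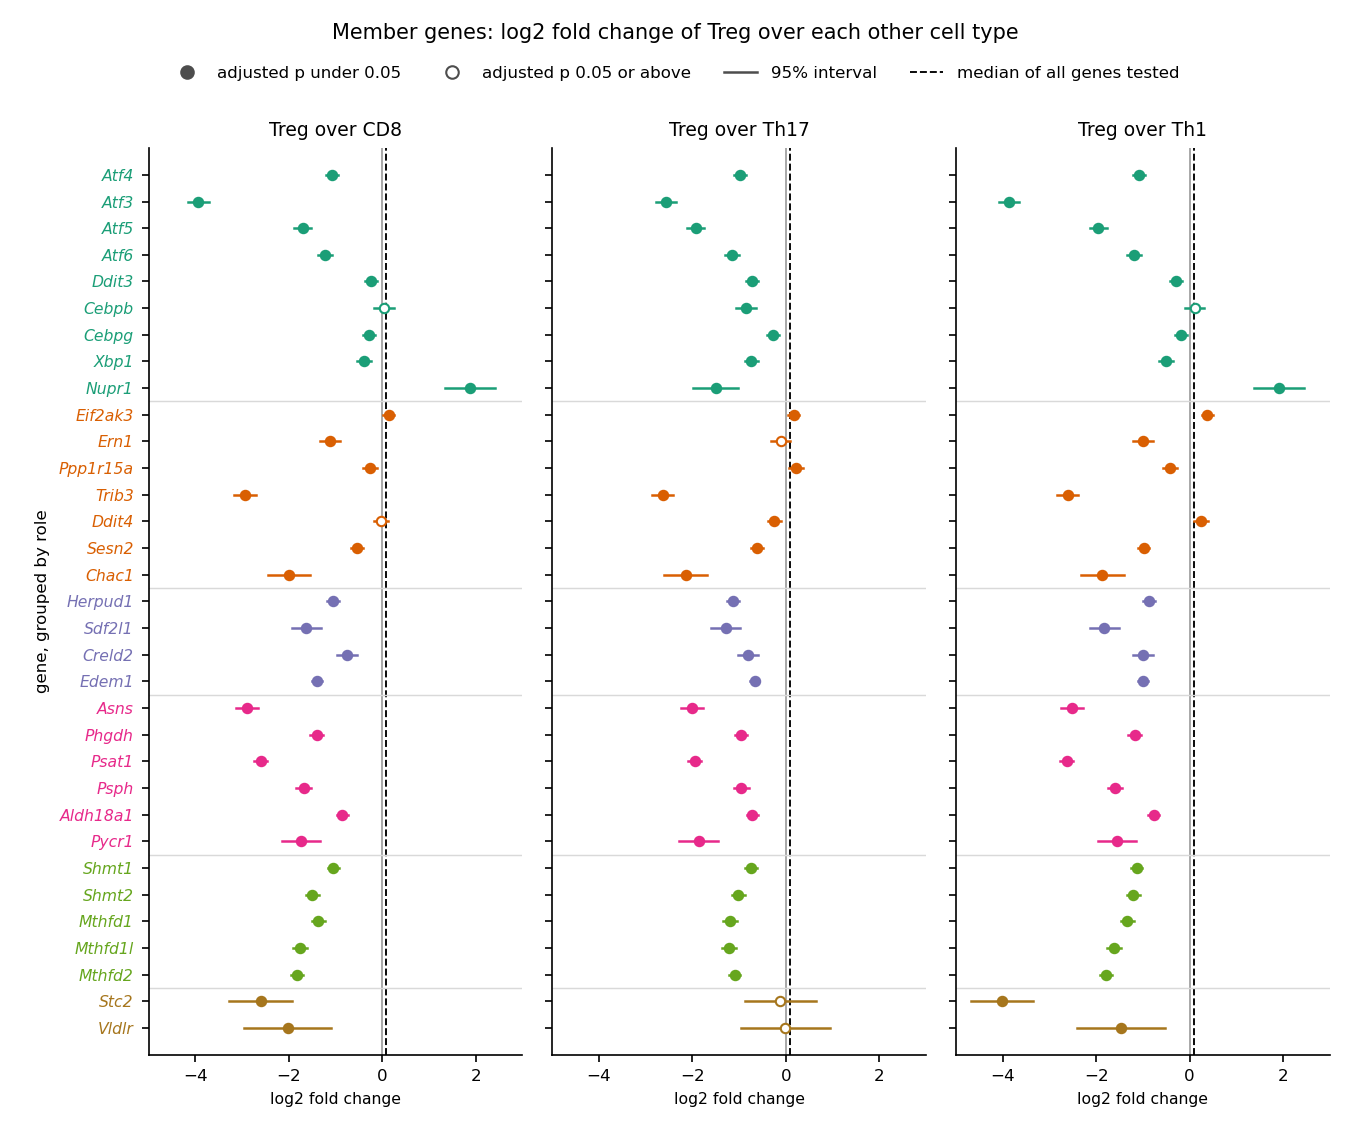
Log2 fold change of Treg over CD8, over Th17 and over Th1 for each gene, with 95% intervals. Filled points passed an adjusted p of 0.05 and the dashed line is the median of all genes tested, 0.080 to 0.090. Atf3, Trib3, Asns and Psat1 lie below −1.9 in each panel, and Nupr1 lies above 0 against CD8 and Th1 and below 0 against Th17.

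Among the transcription factors, Atf4 itself was lower in Treg. Atf4 (ENSMUSG00000042406, chromosome 15, 80139385 to 80141742, plus strand, as the table gives it with no build named) had a lowest, median and highest level of 168, 176 and 192 CPM in Treg, 342, 375 and 386 in CD8, 307, 353 and 403 in Th17 and 348, 375 and 410.3 in Th1. All Treg libraries lay below all others, and the other 3 cell types overlapped. Its log2 fold change was −1.06 ± 0.062 (SE) in Treg over CD8 (adjusted p 2.31e-14), −0.99 ± 0.062 in Treg over Th17 and −1.09 ± 0.062 in Treg over Th1. With length offsets the first was −0.69, and with total counts the second was −0.64. None of the 3 pairs without Treg passed the test, and the 95% intervals were −0.049 to 0.20 for CD8 over Th17, −0.15 to 0.10 for CD8 over Th1 and −0.23 to 0.024 for Th17 over Th1.

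Atf3, a stress-induced factor that represses many of its targets, spread over the widest range of the factors that were low in Treg. It had 2.22, 3.79 and 4.37 CPM in Treg, 49.9, 57.8 and 59.6 in CD8, 16.5, 22.7 and 25.2 in Th17 and 47.1, 53.7 and 57.6 in Th1 (lowest, median and highest). No Treg library overlapped Th17, and no Th17 library overlapped CD8 or Th1. The fold change was −3.93 ± 0.11 in Treg over CD8 (adjusted p 9.91e-21), −2.57 ± 0.11 in Treg over Th17, 1.37 ± 0.091 in CD8 over Th17 and −1.30 ± 0.091 in Th17 over Th1 (adjusted p 3.43e-12). CD8 and Th1 did not differ beyond their spread (95% interval −0.12 to 0.25). Atf5, a factor of the mitochondrial stress response, was lower in Treg against each cell type, with log2 fold changes of −1.70 over CD8, −1.93 over Th17 and −1.96 over Th1. Atf6, the ER membrane factor released by cleavage, was lower in Treg with −1.23, −1.16 and −1.18 in the same order.

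Ddit3, which encodes the CHOP factor of ER stress, peaked in Th17. It had 36.3, 40.3 and 43.2 CPM in Treg, 42.3, 47.2 and 51.7 in CD8, 56.3, 66.5 and 75.8 in Th17 and 44.4, 48.7 and 55.7 in Th1. The Th17 libraries lay above all Treg, CD8 and Th1 libraries, while CD8 overlapped Treg and Th1, and Treg lay just below Th1. It was higher in Th17 than in Th1 (0.44 ± 0.059, adjusted p 7.13e-07) and lower in CD8 than in Th17 (−0.48 ± 0.059). It was lower in Treg with −0.24 ± 0.059 over CD8 and −0.29 ± 0.059 over Th1, but these directions depend on the scaling. They turn to 0.099 and 0.072 with total counts and to 0.36 and 0.30 with length offsets. Xbp1, whose mRNA is spliced by IRE1, had 51.9, 72.1 and 79.6 CPM in Treg, 86.8, 89.7 and 94.9 in CD8, 105, 115 and 122 in Th17 and 89.4, 95.3 and 111 in Th1. Treg lay below the rest, and Th17 lay above CD8 and overlapped Th1, with 0.23 ± 0.070 in Th17 over Th1 (adjusted p 0.00811) and −0.35 ± 0.071 in CD8 over Th17. The difference of Treg from CD8 (−0.39 ± 0.071) shrinks to −0.052 with total counts, with an adjusted p of 0.46 in edgeR. Counts per gene do not separate its spliced and unspliced forms.

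Nupr1, a small stress-induced chromatin protein, did not share the low level in Treg. It had 7.79, 24.5 and 34.98 CPM in Treg, 4.77, 5.79 and 6.99 in CD8, 50.2, 57.7 and 74.7 in Th17 and 3.87, 5.91 and 7.07 in Th1. Th17 lay above all other libraries, every Treg library lay above every CD8 and Th1 library, and CD8 and Th1 overlapped. The fold change was 3.41 ± 0.25 in Th17 over Th1 (adjusted p 1.09e-09), −3.38 ± 0.25 in CD8 over Th17, 1.88 ± 0.25 in Treg over CD8 and −1.50 ± 0.23 in Treg over Th17. Cebpb, a C/EBP partner of ATF4, was also highest in Th17. It had 17.1 to 30.6 CPM in Treg, 20.4 to 30.2 in CD8, 39.9 to 50.01 in Th17 and 18.1 to 25.3 in Th1. It was higher in Th17 than in Th1 by 0.96 ± 0.10, while Treg over CD8 and Treg over Th1 did not pass the test (95% intervals −0.18 to 0.25 and −0.11 to 0.32). Cebpg, a further partner, was lower in Treg with −0.29 over CD8, −0.28 over Th17 and −0.17 over Th1. With total counts these turn to 0.054, 0.066 and 0.19, the last called higher (adjusted p 0.0114 in edgeR).

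**Figure D3:**
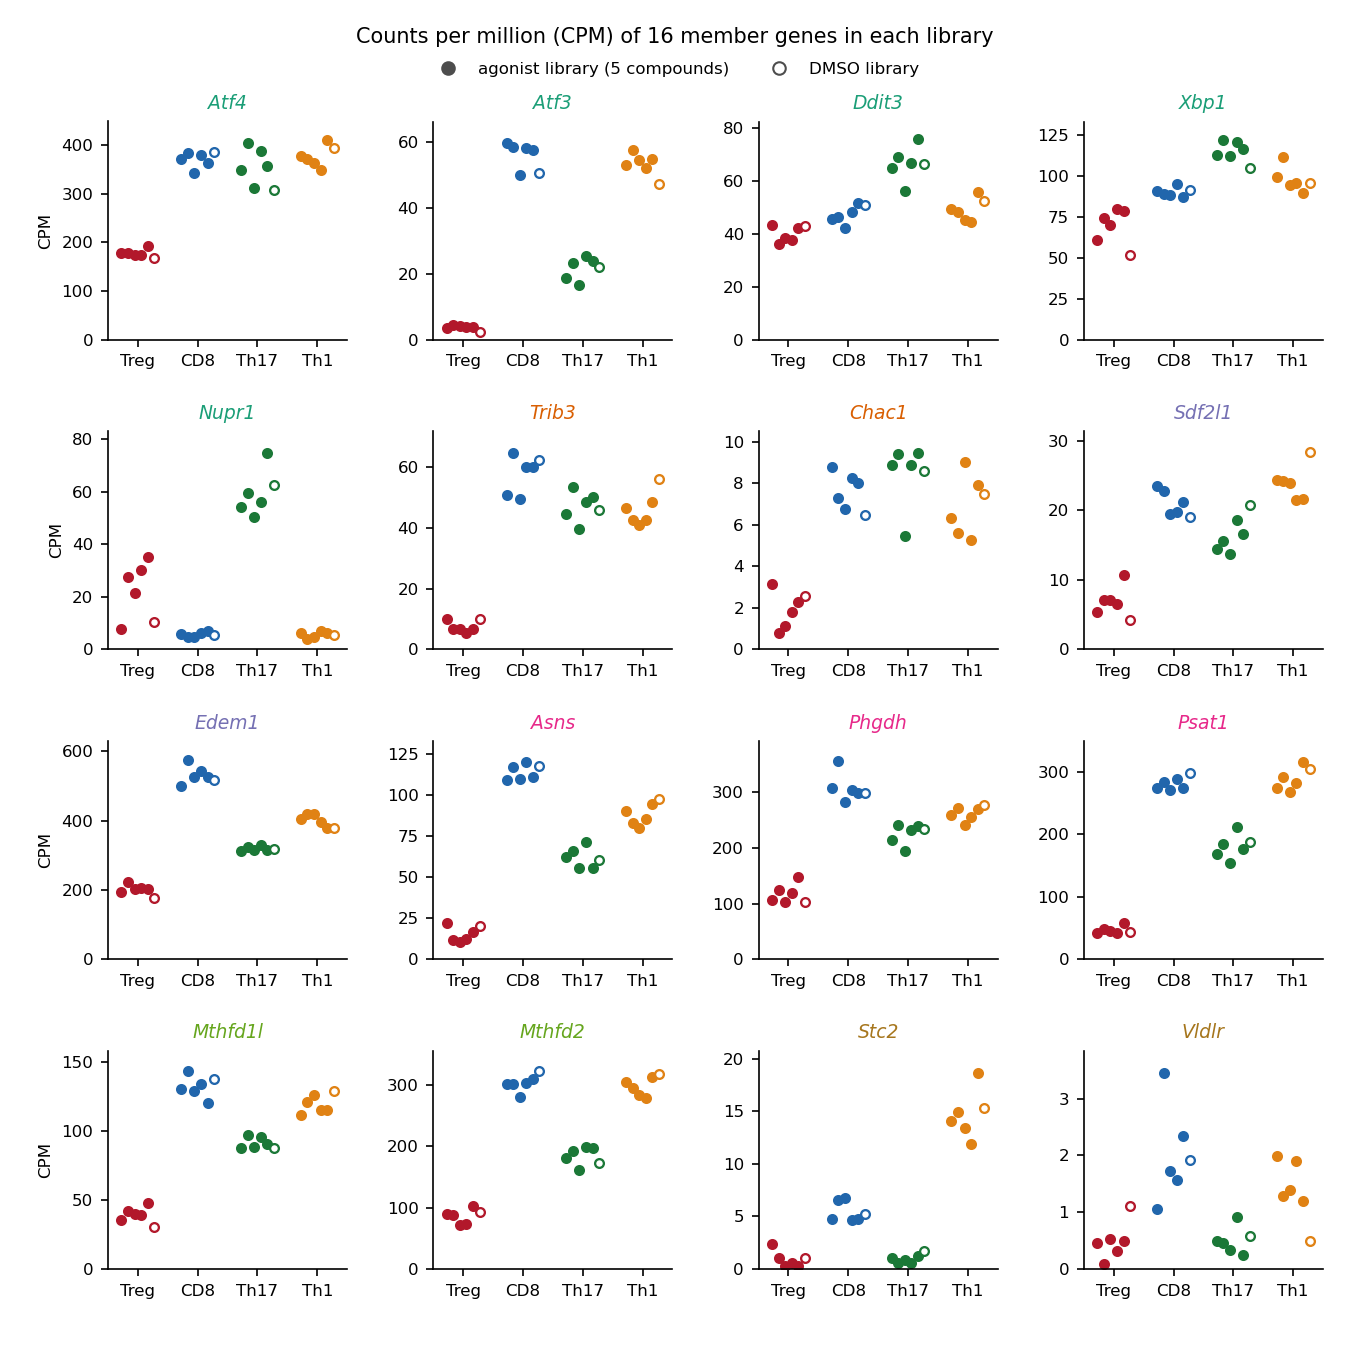
CPM of 16 of the genes in each of the 24 libraries (one panel per gene, axis from 0). Filled points are the 5 agonist libraries and open points the DMSO library, for Treg, CD8, Th17 and Th1 from left to right. DMSO lies outside the agonist points for some genes, as for Atf3 in Treg and for Trib3 and Vldlr in Th1.

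Among the sensors and regulators, Trib3 was lowest in Treg and overlapped among the other cell types. Trib3 encodes a pseudokinase that ATF4 induces and that restrains ATF4 in turn. It had 5.39, 6.76 and 10.04 CPM in Treg, 49.3, 59.9 and 64.6 in CD8, 39.5, 47.2 and 53.4 in Th17 and 41.04, 44.4 and 56.04 in Th1, and the 6 Treg libraries lay far below the other 18. The fold change was −2.94 ± 0.11 in Treg over CD8 (adjusted p 3.60e-18), −2.64 ± 0.11 in Treg over Th17 and −2.61 ± 0.11 in Treg over Th1. CD8 was higher than Th1 by 0.33 ± 0.10 (adjusted p 0.0202), although the ranges overlapped, and this call is lost in 3 of the 24 fits that leave out 1 library.

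Chac1, which degrades glutathione, had 0.782, 2.03 and 3.17 CPM in Treg, 6.47, 7.66 and 8.77 in CD8, 5.47, 8.89 and 9.48 in Th17 and 5.27, 6.91 and 9.02 in Th1. Treg lay below the rest, with −1.996 ± 0.22 over CD8 (adjusted p 6.47e-09), at counts as low as 17 in a Treg library. Sesn2, a leucine sensor upstream of mTORC1, was lower in Treg against all 3 cell types, with log2 fold changes of −0.54 over CD8, −0.62 over Th17 and −0.99 over Th1, and lower in CD8 than in Th1 (−0.44 ± 0.061). With total counts the 3 differences of Treg were −0.20, −0.27 and −0.62.

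Eif2ak3, which encodes PERK, did not share the low level of Atf4 in Treg. It was highest in Treg, with 75.6 to 84.7 CPM, against 67.9 to 80.7 in CD8, 66.8 to 78.99 in Th17 and 57.2 to 67.3 in Th1. It was higher in Treg than in Th1 by 0.38 ± 0.061 (adjusted p 3.21e-06), which was 0.74 with total counts. Against CD8 (0.14 ± 0.061) and Th17 (0.17 ± 0.061) the adjusted p was 0.0415 and 0.0167, but the call held in only 8 and 25 of 35 alternative fits, with values of 0.021 to 0.48 and 0.081 to 0.51. Ern1, which encodes IRE1, had 25.99 to 38.01 CPM in Treg, 60.4 to 73.8 in CD8, 25.1 to 42.4 in Th17 and 52.1 to 65.8 in Th1. It was lower in Treg than in CD8 (−1.12 ± 0.10) and than in Th1 (−0.995 ± 0.10), lower in Th17 than in Th1 (−0.88 ± 0.10), and not called between Treg and Th17 (95% interval −0.32 to 0.10).

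Ppp1r15a, which encodes the GADD34 subunit of an eIF2 phosphatase, had its lowest level in Th17. It had 38.97 to 53.3 CPM in Treg, 50.6 to 62.99 in CD8, 36.4 to 43.7 in Th17 and 54.1 to 67.2 in Th1. It was lower in Th17 than in Th1 (−0.65 ± 0.073, adjusted p 3.13e-08). Ddit4, an inhibitor of mTORC1, was lowest in Th1, and Th17 exceeded Th1 by 0.50 ± 0.069 (adjusted p 1.11e-06) and Treg exceeded Th1 by 0.24 ± 0.069, the first pair without overlap and the second with it. The second difference was 0.61 with total counts and 0.82 with length offsets.

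The ER folding and degradation genes were lower in Treg against each cell type, 4 of 4 in every pair. Sdf2l1, a cofactor of ER chaperones, had 4.18, 6.79 and 10.8 CPM in Treg, 18.97, 20.4 and 23.5 in CD8, 13.7, 16.1 and 20.7 in Th17 and 21.4, 24.1 and 28.4 in Th1. The fold change was −1.82 ± 0.15 in Treg over Th1 (adjusted p 4.80e-11), −1.63 ± 0.15 in Treg over CD8 and −0.53 ± 0.14 in Th17 over Th1. With length offsets it was −0.91 in Treg over Th1 and −0.72 in Treg over CD8. Edem1, which directs misfolded glycoproteins to degradation, had 177, 203 and 223 CPM in Treg, 501, 525 and 574 in CD8, 313, 317 and 330.0 in Th17 and 379, 399.8 and 419.9 in Th1. No cell types overlapped for Edem1, so its order was CD8, Th1, Th17 and Treg, and every neighbouring step passed the test, with 0.41 ± 0.051 in CD8 over Th1, −0.32 ± 0.051 in Th17 over Th1 and −0.67 ± 0.051 in Treg over Th17. The last was −0.33 with total counts. Herpud1, a degradation scaffold of the ER membrane, was lower in Treg with log2 fold changes of −1.05 over CD8, −1.12 over Th17 and −0.87 over Th1, and with length offsets the first and last were −0.67 and −0.50. Creld2, an ER-resident chaperone, was lower with −0.76, −0.81 and −1.002 in the same order, but with length offsets these were 0.0033, −0.16 and −0.24, and the first and second were not called.

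All 6 enzymes of serine, asparagine and proline synthesis were lower in Treg against CD8, Th17 and Th1, with median log2 fold changes of −1.71, −1.41 and −1.57. The replication genes of the cycling list also had lower mean levels in Treg, with 101 CPM in Treg, 249.6 in CD8, 266 in Th17 and 229.5 in Th1 for Mcm2 and, in the same order, 119, 288, 261 and 252 for Pcna. Mki67 of the same list had a higher mean in Treg, at 1073 CPM, with 399 in CD8, 583 in Th17 and 354 in Th1. Top2a was also highest in Treg, at 824 CPM, with 511, 609 and 449 in the same order, while Ccnb1 and Cdk1 had their lowest means there. The mean sum of the cycling list was 2351 CPM in Treg, 1888 in CD8, 2220 in Th17 and 1716 in Th1. The part of cell cycling in the enzyme levels was not tested. Asns makes asparagine from aspartate. Its levels were 10.7, 14.7 and 21.9 CPM in Treg, 109, 114 and 119.8 in CD8, 55.5, 61.3 and 71.1 in Th17 and 79.7, 87.8 and 97.5 in Th1. The 4 cell types did not overlap at all for Asns. The fold change was −2.89 ± 0.12 in Treg over CD8 (adjusted p 1.15e-16), −2.01 ± 0.12 in Treg over Th17, 0.88 ± 0.11 in CD8 over Th17 and −0.51 ± 0.11 in Th17 over Th1 (adjusted p 3.28e-04).

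Phgdh, Psat1 and Psph catalyse the successive steps from 3-phosphoglycerate to serine. Phgdh had 102, 112 and 147 CPM in Treg, 283, 302 and 357 in CD8, 195, 233 and 241 in Th17 and 242, 265 and 278 in Th1. Psat1 had 41.9, 44.3 and 58.4 CPM in Treg, 271, 279 and 298 in CD8, 154, 180.4 and 211 in Th17 and 267, 286 and 315 in Th1. For Phgdh the 4 cell types did not overlap, with CD8 highest, then Th1, Th17 and Treg. For Psat1 Treg lay lowest and Th17 next, and CD8 and Th1 overlapped above both. Phgdh was lower in Treg than in CD8 (−1.40 ± 0.064, adjusted p 1.57e-16) and Psat1 (−2.60 ± 0.071, adjusted p 9.91e-21). Psat1 was lower in Th17 than in Th1 (−0.68 ± 0.066) and did not differ beyond its spread between CD8 and Th1 (95% interval −0.17 to 0.10). Psph was lower in Treg than in CD8 (−1.68 ± 0.077) and higher in CD8 than in Th17 by 0.73 ± 0.074. Of the proline enzymes, Aldh18a1 was lower in Treg than in CD8 (−0.85 ± 0.055), or −0.51 with total counts, and Pycr1 (−1.74 ± 0.20), the second from levels of 1.32 to 4.57 CPM in Treg, against 6.17 to 8.41 in CD8.

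All 5 folate enzymes were lower in Treg against each cell type. All 5 were also higher in CD8 than in Th17, of which Shmt1 was called in 34 and Mthfd1 in 25 of 35 alternative fits, Mthfd1 with values of −0.077 to 0.21. Mthfd2 and Mthfd1l had the widest gaps. Mthfd2, which oxidises methylene-tetrahydrofolate in mitochondria, had 71.8, 88.6 and 103 CPM in Treg, 281, 303 and 323 in CD8, 162, 187 and 198 in Th17 and 279.7, 299.7 and 318 in Th1. Mthfd1l, which releases formate, had 30.6, 39.3 and 48.1 CPM in Treg, 120.4, 133 and 144 in CD8, 87.8, 89.7 and 97.6 in Th17 and 112, 118 and 129 in Th1. For both genes the order was Treg, then Th17, then CD8 and Th1, which overlapped each other and no other cell type. Mthfd2 differed by −1.82 ± 0.063 in Treg over CD8 (adjusted p 7.81e-19), 0.72 ± 0.061 in CD8 over Th17 and −0.70 ± 0.061 in Th17 over Th1. Mthfd1l differed by −1.76 ± 0.075 in Treg over CD8 and 0.54 ± 0.072 in CD8 over Th17. Shmt2, the mitochondrial serine hydroxymethyltransferase, was lower in Treg than in CD8 (−1.49 ± 0.065), and the cytosolic Shmt1 (−1.04 ± 0.060). Mthfd1, the cytosolic trifunctional enzyme, was lower (−1.36 ± 0.068).

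Stc2 and Vldlr, the secreted glycoprotein and the lipoprotein receptor of the set, had low counts. Stc2 had 0.247, 0.826 and 2.35 CPM in Treg, 4.65, 4.998 and 6.79 in CD8, 0.561, 0.960 and 1.73 in Th17 and 11.9, 14.5 and 18.6 in Th1. Th1 lay above all others and CD8 above Treg and Th17, which overlapped. It was lower in Treg than in Th1 (−4.02 ± 0.32, adjusted p 4.36e-11), lower in Th17 than in Th1 (−3.91 ± 0.32) and lower in CD8 than in Th1 (−1.42 ± 0.27). Vldlr had 0.0920, 0.473 and 1.11 CPM in Treg, 1.05, 1.82 and 3.45 in CD8, 0.248, 0.474 and 0.918 in Th17 and 0.495, 1.34 and 1.98 in Th1, with as few as 2 counts in a Treg library. It was lower in Treg than in CD8 (−2.02 ± 0.45, adjusted p 2.51e-04), and the ranges of these cell types met at 1.05 and 1.11 CPM.

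Among CD8, Th17 and Th1 the differences were smaller by median. In CD8 over Th17, 17 genes were higher and 6 lower (24.3% and 22.8% of all genes tested), with a median of 0.17 against 0.0044 over all genes. The 17 included 5 of 5 folate enzymes and 5 of 6 serine, asparagine and proline enzymes, and the 6 lower genes were Nupr1, Cebpb, Ddit3, Xbp1, Atf5 and Ddit4. Of these, 13 of the 17 and 5 of the 6 were called in every alternative fit, the others being Aldh18a1, Mthfd1, Shmt1 and Trib3 among the higher and Atf5, with values of −0.31 to 0.066, among the lower. The part of the Cd8a level of Th17 libraries and the Cd4 level of CD8 libraries in these differences was not tested. In Th17 over Th1, 7 were higher and 16 lower (23.2% and 24.1% of all genes), with a median of −0.19 against −0.016. In CD8 over Th1, 7 were higher and 3 lower (8.69% and 7.26%), with every CD8 library above every Th1 library for 6 genes and below for 2 (7.48% and 6.26% of all genes). All but Asns and Trib3 of the 7 and Atf5 of the 3 were called in every alternative fit. The 3 lower in CD8 were Stc2, Sesn2 and Atf5, and of the 7 higher, Edem1, Asns and Trib3 had the widest log2 differences, 0.41, 0.37 and 0.33.

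Per kilobase of the gene model, which allows genes to be set side by side, Ddit4 was the most abundant of the 33 in Treg, at 139 ± 15.3 CPM per kb (SD, n = 6), followed by Atf4 at 75.2 ± 3.47. In CD8, Atf4 came first at 157 ± 6.98 CPM per kb, with Ddit4 at 142 ± 5.56 and Phgdh at 124 ± 10.2. Vldlr was the least abundant in each cell type, at 0.0497 ± 0.0337 CPM per kb in Treg and 0.200 ± 0.0820 in CD8.

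Among genes of the same pathways outside the set, more were lower than higher in Treg. Of 83 such genes tested, 62 were lower and 17 higher in Treg over CD8, 55 lower and 16 higher in Treg over Th17, and 60 lower and 18 higher in Treg over Th1. Over all genes tested, 37.8% were lower and 40.2% higher in Treg over CD8. The shares were 36.5% and 38.3% in Treg over Th17, and 37.3% and 40.1% in Treg over Th1. These pathway genes were counted with TMM scaling only. Among the further ISR genes, 18 of 26 were lower and 7 higher in Treg over CD8. Cth, which makes cysteine from cystathionine, averaged 0.461 CPM in Treg and 25.9 in CD8, a fold change of −5.82 ± 0.17 (adjusted p 4.57e-20). Sesn1, a sestrin, was higher in Treg than in Th17 (1.36 ± 0.083), and Trib1, a pseudokinase, was lower in CD8 than in Th17 (−1.24 ± 0.11). Jdp2, an AP-1 family repressor, was higher, with 1.87 ± 0.18 in Treg over CD8 and 1.79 ± 0.18 in Th17 over Th1. Among the further ER genes, 19 of 25 were lower and 4 higher in Treg over CD8, and Derl3, a degradation factor, was one of the 4 (1.87 ± 0.31, with 4.01 CPM in Treg and 1.103 in CD8). Dnajb9, a chaperone induced by XBP1, was higher in Th17 than in Th1 (1.16 ± 0.11). Among the further one-carbon genes, 19 of 26 were lower and 6 higher, and Ggh, which trims folate polyglutamates, was lower (−2.76 ± 0.16). Gcsh and Gldc belong to the glycine cleavage system, and Gcsh was lower in Treg than in Th17 (−2.39 ± 0.17) while Gldc, at 1.96 CPM in CD8 and 0.253 in Th17, was higher in CD8 (3.04 ± 0.48). All 6 purine synthesis genes were lower in Treg against CD8, Th17 and Th1, with medians of −1.55, −1.38 and −1.54.

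The agonists were then compared with DMSO over the 4 cell types. No member passed the test for the 5 agonists together, nor did any of the 15885 genes (0% called by edgeR, 504 genes at an unadjusted p under 0.05, 5 by limma-voom and 0 by DESeq2). The members with an unadjusted p under 0.05 were Trib3 (−0.23 ± 0.10), Xbp1 (0.15 ± 0.068) and Atf3 (0.20 ± 0.092), each with an adjusted p of 0.992. Next by p came Atf5 (−0.15 ± 0.080) and Edem1 (0.087 ± 0.049). Trib3 had 49.3 to 64.6 CPM in the agonist libraries of CD8, against 62.3 with DMSO, and 41.04 to 48.3 in those of Th1, against 56.04 with DMSO. All agonist libraries lay below DMSO in Th1, and all but 1 did in CD8, while in Th17 3 of the 5 lay above it. For 30 of 33 genes the 95% interval of the agonist effect lay within 0.5 on the log2 scale, and for Atf4 it was −0.079 to 0.16. The 33 intervals exclude a change of 1 log2 unit for 32 genes, the exception being Vldlr (−1.04 to 0.71).

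Taken one compound at a time, 0 members passed the test for any of the 5 (0% of all genes for each), and DESeq2 and limma-voom called 0 members too. WMS-75 had 7 members at an unadjusted p under 0.05, and all 7 were lower than with DMSO, beside 548 of all 15885 genes in either direction. They were Trib3 (−0.39 ± 0.13), Asns (−0.32 ± 0.13), Atf5 (−0.28 ± 0.10), Ddit3 (−0.22 ± 0.073), Mthfd2 (−0.21 ± 0.075), Shmt2 (−0.18 ± 0.079) and Shmt1 (−0.17 ± 0.073), with adjusted p values of 1. WMS-64 had 3, Atf3 (0.30 ± 0.12), Xbp1 (0.22 ± 0.087) and Edem1 (0.16 ± 0.062), all higher, beside 1021 of all genes. WMS-76 had 3, Atf3 (0.25 ± 0.12), Xbp1 (0.21 ± 0.087) and Trib3 (−0.27 ± 0.12), beside 488 of all genes. WMS-83 had 1, Atf3 (0.24 ± 0.12), beside 620 of all genes, and WMS-200 had 0, beside 246. Since the compounds share their DMSO libraries, these values are not independent of one another. The WMS-75 library of Th17 had 8.92% of its counts in ribosomal protein genes, against 10.5% to 11.8% in the other Th17 libraries. The part of this in the values of WMS-75, here and in the pairs of agonists, was not tested.

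The 5 agonists were compared with each other at the same dose in 10 pairs, which use no DMSO library. The WT number crosses the pairs with WMS-200, which alone among the agonists has number 3 in Treg, and those with WMS-83, which alone has it in Th17. No member passed the test in any pair, with p adjusted over genes within a pair or over genes and pairs together, nor in DESeq2 or limma-voom, and 31 of the differences had an unadjusted p under 0.05. Of all genes, 0.0063% were called in WMS-200 over WMS-76 and 0% in each of the other 9 pairs. Of the 330 differences, 272 had a 95% interval within 0.5 on the log2 scale and 307 within 1, and those reaching beyond 1 were of Nupr1, Pycr1, Stc2 and Vldlr. The smallest unadjusted p was for Ddit3 in WMS-75 over WMS-83 (−0.29 ± 0.073, 95% interval −0.44 to −0.14, p 4.60e-04, adjusted p 0.714). In the same pair Mthfd2 differed by −0.27 ± 0.075 (95% interval −0.42 to −0.12), and 31 of 33 genes had a value below 0, while 7524 of all 15885 genes had one above 0 and 1087 an unadjusted p under 0.05. Atf4 differed most between WMS-64 and WMS-75, by 0.15 ± 0.075 (95% interval −0.0021 to 0.31). An interval that includes 0 does not show that 2 compounds act alike, and the widths given state what these 4 libraries per compound allow. Chemical names were not given for the code names, so differences in structure are not described.

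Inside Treg, 5 members were higher in the agonist libraries than in the DMSO library and 0 were lower, while 7.64% of all genes were higher and 1.18% lower. Xbp1 had 60.5 CPM with WMS-200, 74.5 with WMS-64, 69.8 with WMS-75, 79.6 with WMS-76 and 78.6 with WMS-83, against 51.9 with DMSO. Its fold change was 0.49 ± 0.13 (adjusted p 0.0158). Atf3 had 3.67 to 4.37 CPM with agonists, against 2.22 with DMSO (0.82 ± 0.25, adjusted p 0.0333). All 5 agonist libraries lay above DMSO for both genes. Sdf2l1 had 5.39 to 10.8 CPM, against 4.18 (0.81 ± 0.26, adjusted p 0.0478). Mthfd1 had 54.1 to 66.9 CPM, against 45.5 (0.41 ± 0.12, adjusted p 0.027). Mthfd1l had 35.9 to 48.1 CPM, against 30.6 (0.42 ± 0.13, adjusted p 0.0355). For these 3 genes too the DMSO library was the lowest of the 6. Of the 83 other pathway genes, 20 were higher and 2 lower. The comparison rests on 1 DMSO library, and it takes the libraries of 5 different compounds as replicates of one another. When 1 of the other 23 libraries was left out, the call of Sdf2l1 was lost in 18 fits and that of Mthfd1l in 9. Those of Atf3, Mthfd1 and Xbp1 were lost in 3, 1 and 0 fits. Of these genes limma-voom called only Xbp1 and Mthfd1, and with length offsets only Xbp1 was called.

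The WT number divides the Treg libraries in a way that crosses this comparison, since DMSO and WMS-200 share number 3. With that number as a replicate block, the Treg comparison comes down to the WMS-200 library against the DMSO library, 1 against 1. The other 4 agonists do not contribute to it, so this fit cannot test the agonists together. In it Xbp1 had a log2 fold change of 0.22 and Atf3 of 0.72. For 10 of the 33 genes all 4 libraries with number 2 lay above both libraries with number 3, and for 8 all 4 lay below, against 21.3% and 15.9% of all genes tested. Nupr1 had 21.6 to 35.0 CPM in the 4 with number 2, against 7.79 with WMS-200 and 10.6 with DMSO. Trib3 had 5.39 to 6.86 CPM in the 4, against 9.96 with WMS-200 and 10.04 with DMSO. Asns had 10.7 to 16.8 CPM in the 4, against 21.9 with WMS-200 and 19.9 with DMSO. For these 3 genes the WMS-200 library lay beside DMSO and not with the other agonists. The called members Xbp1, Atf3, Sdf2l1, Mthfd1 and Mthfd1l split by number too, with both libraries of number 3 below all 4 of number 2. Xbp1 had 51.9 and 60.5 CPM with number 3, against 69.8 to 79.6 with number 2. Atf3 had 2.22 and 3.67 CPM, against 3.75 to 4.37. The 7 cycling markers summed to 2408 to 3063 CPM in the 4 libraries with number 2, against 1774 with WMS-200 and 1603 with DMSO. Compound and WT number cannot be told apart for the other 4 agonists in Treg. Without the WMS-83 library 1 member remained called, Xbp1, and without the WMS-200 library 11 were called, 8 higher and 3 lower, the 3 being Atf5, Asns and Trib3.

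**Figure D4:**
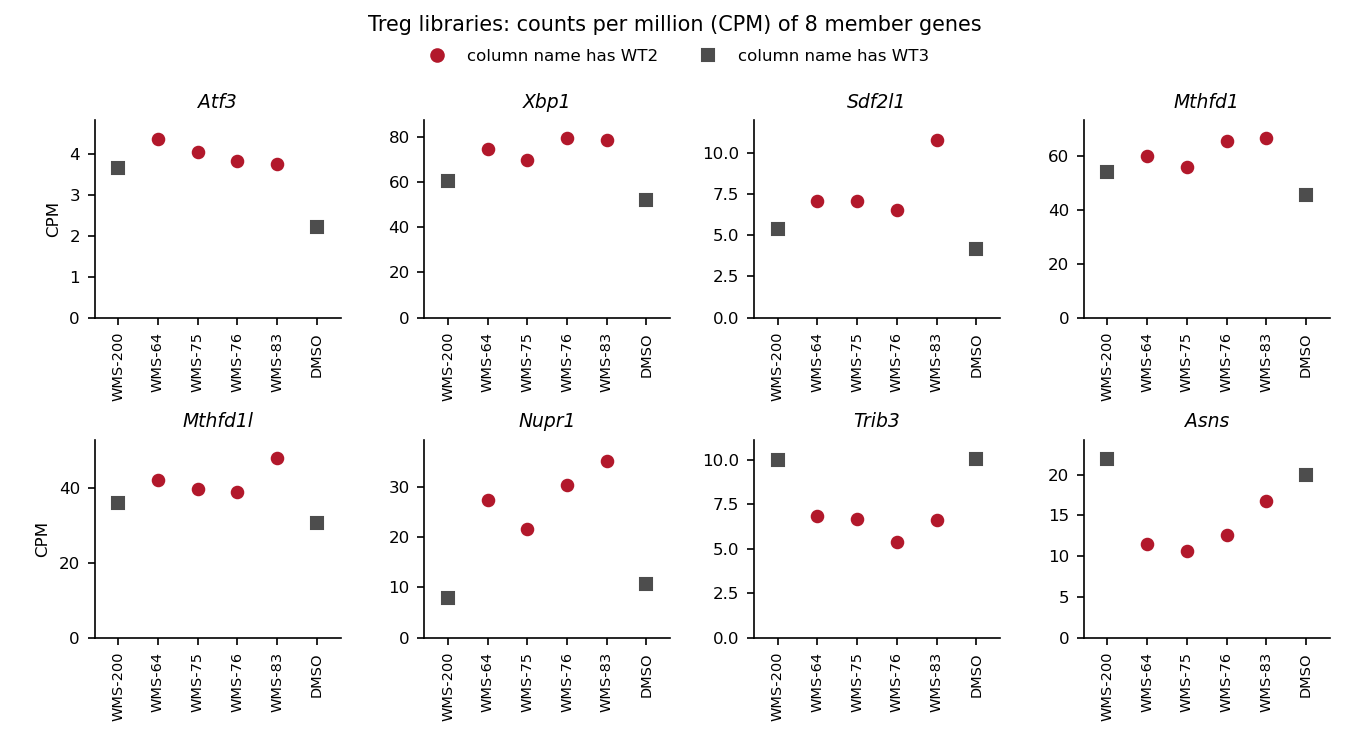
CPM of 8 genes in the 6 Treg libraries (5 agonists, then DMSO, axis from 0). Circles are libraries with WT2 in the column name and squares those with WT3. For Nupr1, Trib3 and Asns the 2 squares lie together and apart from the 4 circles. For Xbp1, Atf3, Sdf2l1, Mthfd1 and Mthfd1l DMSO is lowest, and both squares lie below the 4 circles.

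In CD8, Th17 and Th1, 0 members passed the test of agonists over DMSO (0.0063%, 0.0378% and 0% of all genes), and DESeq2 and limma-voom also called 0. At an unadjusted p under 0.05 there were 0 members in CD8, 0 in Th17 and 1 in Th1. The smallest unadjusted p in CD8 was that of Ppp1r15a (−0.23 ± 0.13), with 50.6 to 56.1 CPM in agonist libraries, against 62.99 with DMSO. Shmt1 (−0.14 ± 0.12) and Atf3 (0.17 ± 0.15) followed. In Th17 it was that of Atf4 (0.24 ± 0.12), with 311 to 403 CPM, against 307 with DMSO, and Sdf2l1 (−0.39 ± 0.21) and Stc2 (−1.01 ± 0.66) came next. In Th1 it was that of Vldlr (1.64 ± 0.78), with 1.203 to 1.98 CPM with agonists, against 0.495 with DMSO, followed by Atf6 (−0.24 ± 0.12) and Trib3 (−0.35 ± 0.18). The adjusted p was 1 for each of these. The DMSO library of Th17 is the only Th17 library with number 2, so its number and its treatment coincide. Of the 99 intervals in these 3 cell types, 71 lay within 0.5 and 88 within 1 on the log2 scale. Whether the agonist effect differs between cell types was tested directly, and 0 members passed (0.176% of all genes), with 6 at an unadjusted p under 0.05. Sdf2l1 had the smallest p (0.00492, adjusted p 0.155), followed by Mthfd1 (adjusted p 0.228). The agonist effect on Sdf2l1 was 0.81 ± 0.26 in Treg, 0.17 ± 0.22 in CD8, −0.39 ± 0.21 in Th17 and −0.30 ± 0.20 in Th1, and the test of the difference missed the threshold.

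**Figure D5:**
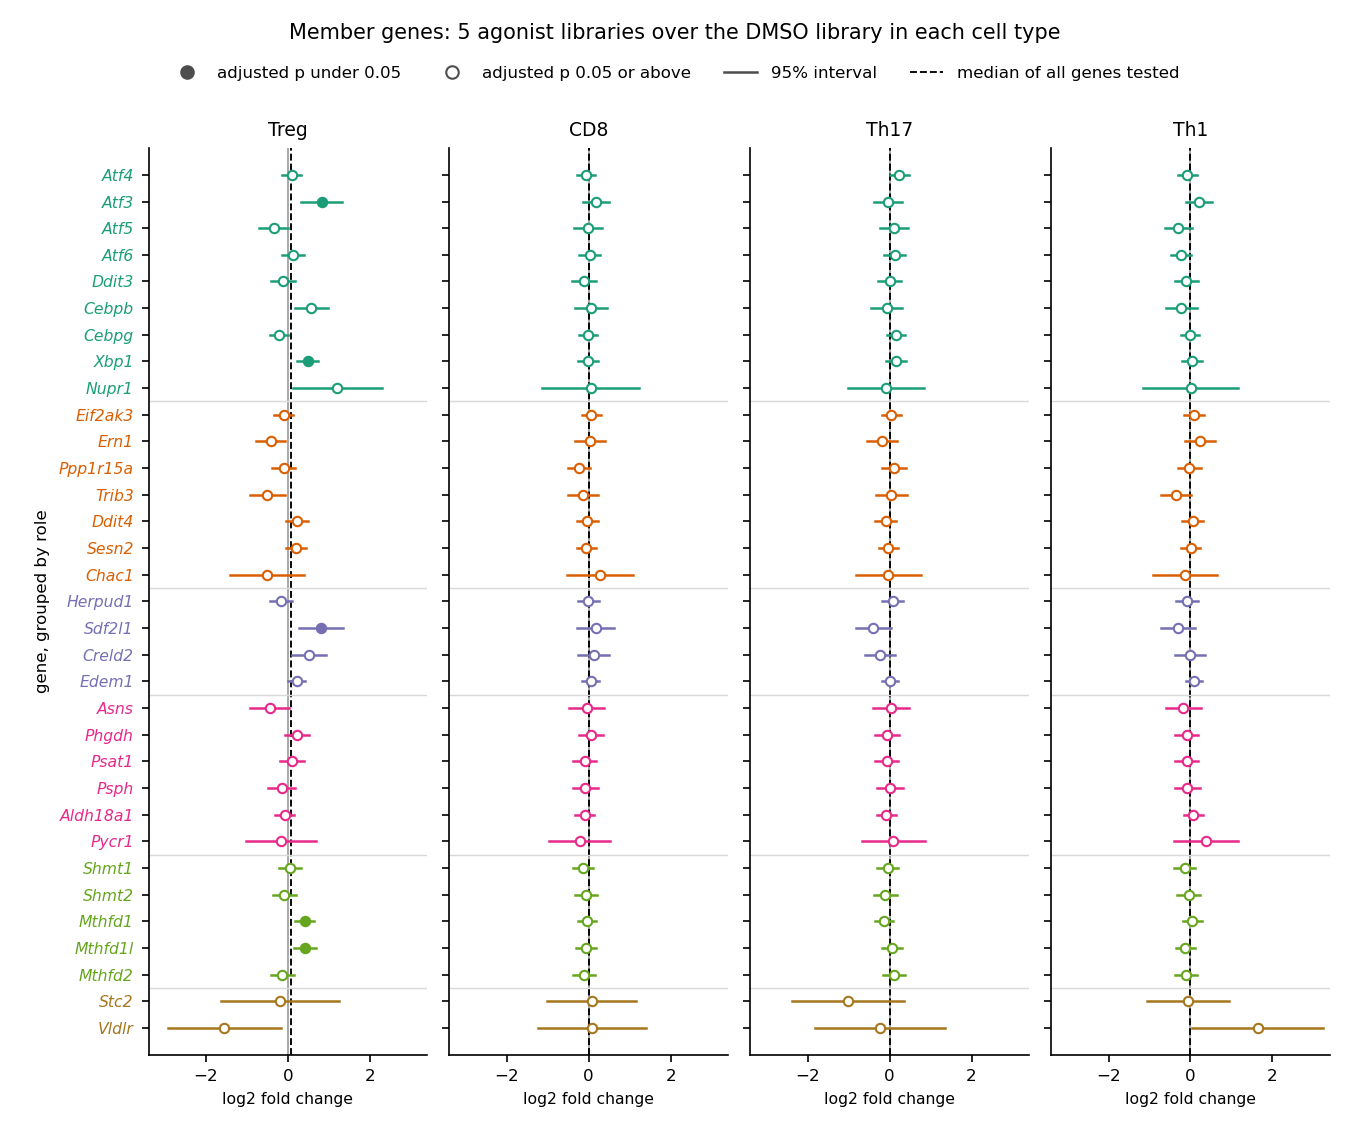
Log2 fold change of the 5 agonist libraries over the DMSO library in Treg, CD8, Th17 and Th1 for each of the 33 genes, with 95% intervals. Filled points passed an adjusted p of 0.05, and the dashed line is the median of all genes tested. Filled points appear only in the Treg panel, at Atf3, Xbp1, Sdf2l1, Mthfd1 and Mthfd1l. The low-count genes Stc2 and Vldlr, and Nupr1, have the widest intervals.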

How the data were processed

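Poly(A) RNA of cultured mouse T cells was sequenced in 24 libraries. The authors deposited unnormalised counts of reads for each gene. The submitters' processing notes name fastp, HISAT2 and featureCounts. Their versions, the strand setting and the genome build were not given in the sources used here. Reads of a gene and of an antisense neighbour cannot be told apart, and the table's coordinates are printed without a build. The protocol's compound names carry a suffix, and the shorter codes of the columns are used. One library is titled Th17 but is Th1 by source name, characteristics and column, and was used as Th1. The columns call the CD8 libraries Tc1. Libraries of a cell type differed by a chi-square per gene of at least 3.96, so none was a copy of another.

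Genes were filtered with filterByExpr by cell type (minimum count 10), which left 15885 genes with all 33 members. Ddit3 has a second identifier of 105 bases with 0 counts, which was not used. CPM are counts scaled by TMM. edgeR 4.0.16 in R 4.3.3 fitted robust quasi-likelihood models to all libraries, with p adjusted by Benjamini-Hochberg over all genes (threshold 0.05). The first had cell type and compound terms (15 residual degrees of freedom), the second agonist or DMSO within cell type (16), where the lone DMSO library is assumed to vary like the other groups. Fold changes are log2 with standard errors and 95% intervals. The members and gene lists were chosen with earlier results of these data known. Described in full were Atf4, Ddit3, Xbp1, Phgdh and, per role, the 2 genes with the widest gap between cell types. For the agonists these were the smallest p-values and the called members, and for other pathway genes the largest changes. The alternatives were DESeq2 1.42.0 and its size factors, limma-voom (limma 3.58.1), total counts, other filters, length offsets, ribosomal protein and mitochondrial genes left out, agonist libraries only, the 12 libraries of a pair only, the WT number as a block, and each library left out.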

Additional observations from a re-analysis of the deposited data

Results flagged for a closer look

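The levels of the 33 genes in the 4 cell types gave 132 groups of 6 libraries, and in 8 of them 1 library stood apart beyond Dixon's 95% critical value, by its gap to the nearest other library relative to the group's range. Chance alone gives about 1 in 20 such groups.

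In Treg, the DMSO library was low for Atf3, with 2.22 CPM, while the 5 agonist libraries had 3.67 to 4.37. The WMS-83 library of Treg was high for Psat1, with 58.4 CPM, and the other 5 had 41.9 to 48.1. The WMS-200 library of Treg was high for Pycr1, with 4.57 CPM, and the other 5 had 1.32 to 2.43. In CD8, the WMS-76 library was high for Atf6, with 66.4 CPM, and the others had 59.3 to 61.6. The WMS-75 library of CD8 was low for Sesn2, with 176 CPM, and the others had 189.9 to 196. The WMS-64 library of CD8 was high for Phgdh, with 357 CPM, and the others had 283 to 307. In Th17, the WMS-75 library was low for Chac1, with 5.47 CPM, and the others had 8.58 to 9.48. In Th1, the DMSO library was high for Atf6, with 67.8 CPM, and the agonist libraries had 54.6 to 59.1.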

How the results depend on the processing

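Of the genes called lower, 24 of 29 in Treg over CD8, 25 of 28 in Treg over Th17 and 26 of 29 in Treg over Th1 were called lower under every alternative, of 35, 35 and 34 fits. The others were Cebpg, Creld2, Ddit3, Ppp1r15a and Xbp1 against CD8, Cebpg, Creld2 and Ddit4 against Th17, and Cebpg, Ddit3 and Ppp1r15a against Th1. Ddit3 turned round in Treg over CD8 to 0.099 with total counts and 0.36 with length offsets, and in Treg over Th1 to 0.072 and 0.30. Ddit4 in Treg over Th17 ranged from −0.40 to 0.25 over these fits, and Ppp1r15a in Treg over CD8 from −0.33 to 0.077. The sign was kept in every fit for 25 of the genes lower against CD8, 26 against Th17 and 27 against Th1. Members called higher in Treg over CD8 numbered 4 with total counts, 4 with length offsets, and 1 without ribosomal protein and mitochondrial genes, without a filter, with agonist libraries only, with the replicate block and with the 12 libraries compared only, and 1 to 2 when 1 library was left out. In Treg over Th17 they numbered 0 without ribosomal protein and mitochondrial genes and without a filter, 1 with agonist libraries only and with the replicate block, and 1 to 2 when 1 library was left out. In Treg over Th1 they numbered 5 with total counts and 5 with length offsets. In CD8 over Th1, 5 were lower with the 12 libraries compared only, and then 4139 genes were called, against 2534.

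For the agonists in Treg, 1 member was called with DESeq2 size factors, without ribosomal protein and mitochondrial genes and with length offsets. There were 2 with limma-voom, 3 with total counts, and 1 to 11 when 1 library was left out. The replicate block sets only WMS-200 against DMSO there, so its calls are not counted. All genes called for the agonists in Treg numbered 930.0 to 2576 when 1 library was left out, the lowest without WMS-83 and the highest without WMS-200 of Treg, against 1401. In Th17, all genes called numbered 12 without a filter and 11 with DESeq2, against 6. With the block, 1 member was called there, Nupr1, and 102 of all genes. That fit takes the difference between numbers 2 and 3 from Treg, since the DMSO library is the only Th17 library with number 2. Its calls therefore do not rest on the Th17 libraries alone. The interaction called 1 member without a filter, Sdf2l1, and 0 to 2 when 1 library was left out, and 8 to 986 of all genes, against 28, with both highest counts without the WMS-200 library of Treg. Without a filter, 1 member was called in WMS-83 over DMSO, 2 in the pairs of agonists, and 26 genes for the agonists across cell types, against 0. The WT numbers are a label of the columns and are not known to pair samples. The block could not be fitted for the pairs with Th1, where number and cell type cannot be told apart. Length offsets, and leaving out ribosomal protein and mitochondrial genes, were added for the agonists after seeing the data. The cause of these shifts was not tested. With 1 library per combination, a low level is limited by depth, down to 2 counts for Vldlr in Treg.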
